A study of Bos taurus with 18 samples.

Results

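In blood leukocytes of cattle under heat stress, 72 genes were described whose levels set the 2 parental breeds fully apart while the F1 hybrids reached into the range of the Droughtmaster parent breed. The groups were 6 F1 animals (Red Angus x Droughtmaster), 6 Droughtmaster animals (a composite beef breed with Bos indicus and Bos taurus ancestry) and 6 Red Angus animals (a Bos taurus beef breed). All 18 were females, all were labelled as heat-stressed and all gave 1 library from the white cell layer of blood, so no unstressed animal stands beside them. The labels give no ages, and they do not say which breed was the dam of the F1 or whether the animals sampled here were relatives. Levels are CPM, the count of a gene relative to the total of its library, with totals scaled by TMM factors, and differences are of means of log2(CPM + 0.5).

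The genes were chosen by 3 conditions on those levels, among 12326 Ensembl genes with a mean of at least 1 CPM over the 18 libraries. The range of the 6 Droughtmaster libraries did not overlap that of the 6 Red Angus libraries, the parental means lay at least 1 log2 unit apart, and the F1 range overlapped the Droughtmaster range. Of the 72 genes, 47 were higher and 25 lower in Droughtmaster. Since these values chose the genes, the differences between the groups are given as a description; counts of genes called by a fit across all features stand at the end, beside the share of all features, and support nothing about these genes. The deposited table identifies genes by Ensembl number without names, and 0 of 27607 numbers matched the RefSeq table at hand (assembly ARS-UCD2.0), so no gene here carries a name or a role and no sequence could be attached to one. The leukocyte label and the makeup of the blood samples could not be checked against marker genes for the same reason. In whole-blood leukocytes, fewer cells of a type and less RNA per cell cannot be told apart.

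A hybrid carries 1 set of chromosomes from each parent, and its level of a transcript can lie midway between the parental levels (additive), at the level of 1 parent (dominant) or outside both. Differences that sit in a gene's own regulatory sequence act on each parental copy separately and tend to give intermediate levels in an F1, whereas differences in diffusible regulators act on both copies. Leukocytes are a mixture of neutrophils, lymphocytes, monocytes and other cells, whose proportions differ between animals and change with stress.

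The parental ranges were apart, with means at least 1 log2 unit apart, in 124 of the 12326 genes, or 1.01% of them, with 0.617% higher and 0.389% lower in Droughtmaster. The F1 range overlapped the Droughtmaster range in 72 of these 124 genes and lay apart from it in the other 52, against 2.05% of all genes where it lay apart. A Droughtmaster range clear of Red Angus favours one clear of the F1 as well, so this contrast is no independent result. The F1 range overlapped the Red Angus range in 124 of 124 (apart in 0.0487% of all genes), so that in each of the 72 genes the F1 animals spanned both parents. No gene of the 124 had its F1 range over the Droughtmaster range and clear of Red Angus. Over all 12326 genes, the F1 range overlapped the Red Angus range in 99.95% and the Droughtmaster range in 97.9%, so the overlap with Red Angus in all 124 lies near the background.

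**Figure D1:**
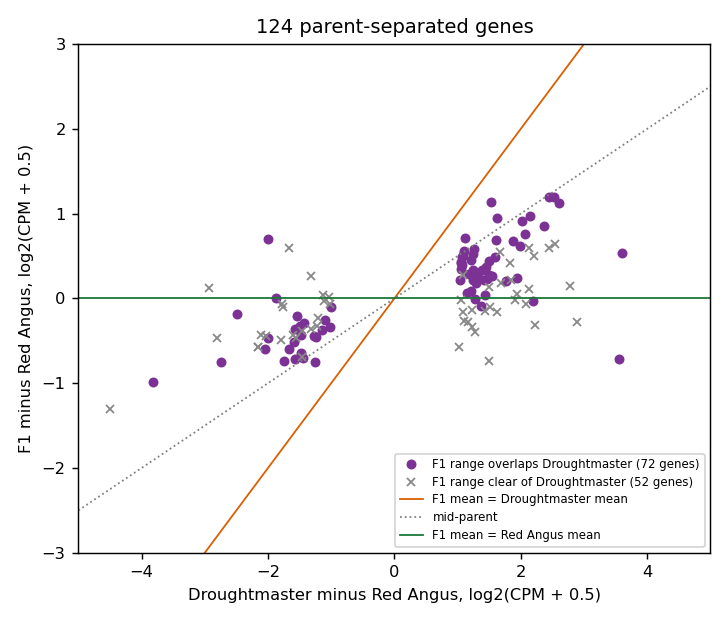
Difference of the F1 mean from the Red Angus mean (vertical axis) against the difference of the Droughtmaster mean from the Red Angus mean (horizontal axis), both in log2(CPM + 0.5), for 124 genes. Filled points are the 72 genes whose F1 range overlapped the Droughtmaster range, crosses the other 52, and most filled points lie between the Red Angus line and the mid-parent line.

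Although the F1 reached the Droughtmaster range in each of the 72 genes, its mean lay nearer to Red Angus in 67 of them. Of all 124 separated genes, the F1 mean lay nearer to Droughtmaster in 5, and in 0 of the 52 clear of Droughtmaster. A mean nearer to Red Angus is thus not particular to the 72 genes. The place of the F1 was measured as the share of the parental difference that separates the F1 mean from the Red Angus mean, with 0 at the Red Angus mean, 0.5 midway and 1 at the Droughtmaster mean. The median place was 0.310 in the 47 genes higher in Droughtmaster and 0.290 in the 25 lower ones, with quartiles of 0.153 and 0.431 for the higher genes and of 0.217 and 0.362 for the lower ones. In 61 genes the F1 mean lay from the Red Angus mean up to midway, in 5 from midway up to the Droughtmaster mean, in 6 on the far side of the Red Angus mean, and in 0 beyond the Droughtmaster mean. The highest place was 0.738 and the lowest -0.351. The median F1 animal lay on the Droughtmaster side of the median Red Angus animal in 64 of 72 genes, 42 of the 47 higher and 22 of the 25 lower ones. The overlap condition draws the F1 to that side, and no such count was taken over all genes. The 64 genes are therefore no independent result.

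In the 52 separated genes whose F1 range stayed clear of Droughtmaster, the median place was 0.0566, with 21 genes on the far side of the Red Angus mean and 0 past midway. The overlap condition itself raises the place in the 72 genes, so the contrast between the 72 and the 52 is fixed in direction by the choice. In Droughtmaster replicate 3 a single gene took 44.6% of all counts. Without that library the median places of the same genes were 0.324 and 0.289. They ranged from 0.246 to 0.407 for the higher and from 0.222 to 0.327 for the lower genes when each of the 18 libraries was left out in turn.

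**Figure D2:**
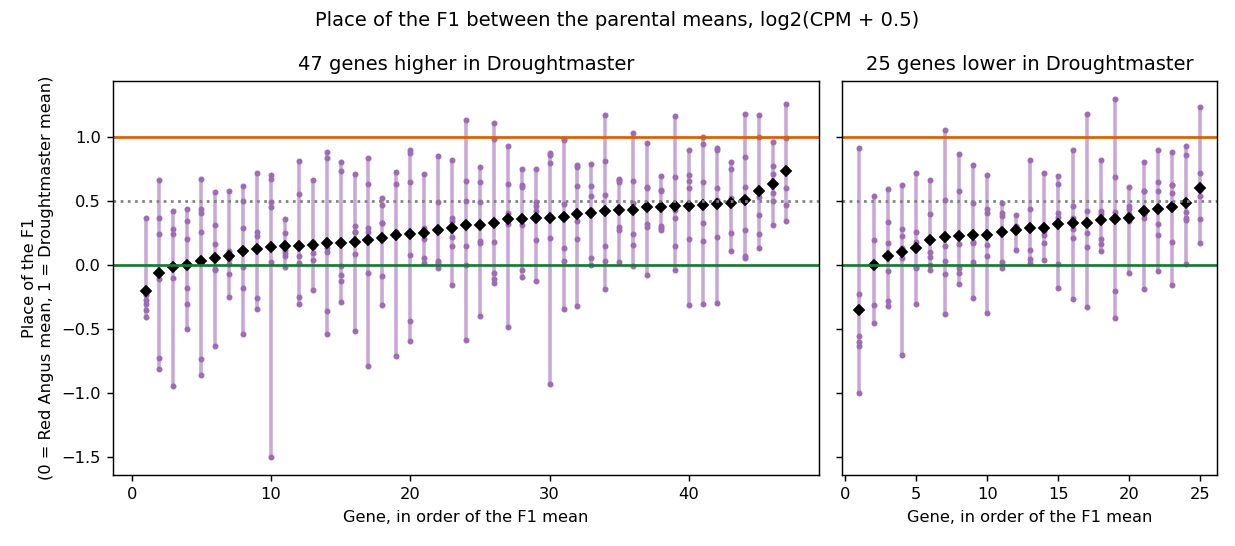
Place of the F1 for each of the 72 genes, in order of the F1 mean; the vertical axis is 0 at the Red Angus mean (green line) and 1 at the Droughtmaster mean (orange line). Diamonds are F1 means, small points the 6 F1 libraries and bars their range; 67 of 72 diamonds lie under the dotted mid-parent line.

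The overlap with Droughtmaster rested on few F1 animals. Exactly 1 of the 6 F1 libraries lay in or beyond the Droughtmaster range in 34 genes, 2 libraries did in 25 genes, 3 in 8 genes and 4 in 5 genes. In no gene did 5 or 6 of them. Over the 72 genes and 6 F1 libraries there were 432 values. Of these, 127 (29.4%) lay inside the Droughtmaster range, 1 beyond it, 58 (13.4%) between the parental ranges, 223 (51.6%) inside the Red Angus range and 23 (5.32%) on its far side.

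Leaving out the F1 library that reached furthest ended the overlap in 34 of the 72 genes, with levels as scaled over all 18 libraries. By definition these are the 34 genes in which a single F1 library lay in or beyond the Droughtmaster range. Leaving out the Droughtmaster library nearest to the F1 instead ended the overlap in 23. In 29 genes the overlap held either way, in 14 it ended either way, and in 17 it held with both libraries left out at once. By direction, 21 of the 47 higher and 8 of the 25 lower genes kept their overlap either way.

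The F1 animals differed in how often they reached Droughtmaster levels. F1 replicates 5 and 4 did so in 33 and 32 of the 72 genes, replicate 3 in 22, replicates 1 and 6 in 17 each and replicate 2 in 7. Replicate 5 was the only F1 library to do so in 15 of the 34 genes with a single such library, against 1 to 5 genes for each of the other F1 libraries. The animals also differed by direction. Replicate 4 reached the Droughtmaster range in 27 of the 47 higher genes (57.4%) and in 5 of the 25 lower ones (20%), and replicate 5 in 20 (42.6%) and 13 (52.0%). A gene entered the list only where some F1 library reached that range, and the 15 genes entered through replicate 5 alone. The counts of this paragraph thus come from the values that chose the genes. They were not taken over all genes and describe these 72 only.

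**Figure D3:**
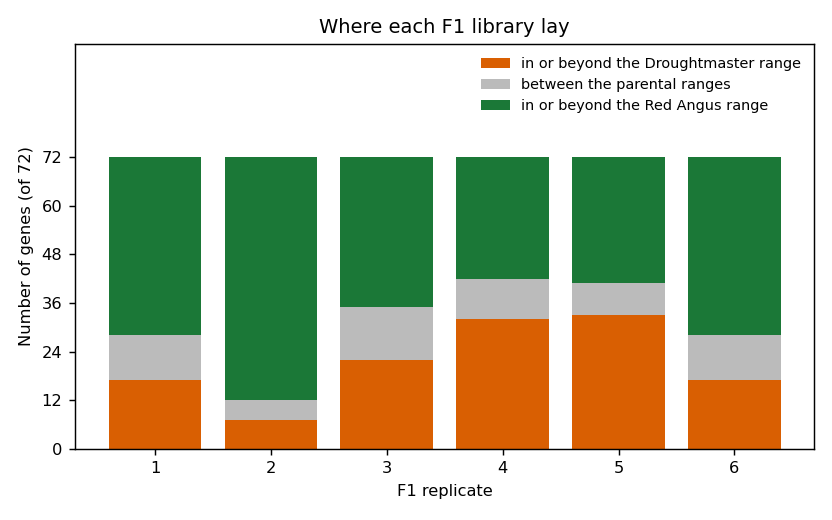
Number of the 72 genes (vertical axis) in which each of the 6 F1 libraries (horizontal axis) lay in or beyond the Droughtmaster range, between the parental ranges, or in or beyond the Red Angus range. Replicates 4 and 5 reached Droughtmaster levels in 32 and 33 genes and replicate 2 in 7.

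A score was taken for each library as its mean deviation over the 72 genes, in log2 units from the mean of the 18 libraries and turned so that positive values point to Droughtmaster. It averaged -0.254 ± 0.306 in F1, 0.945 ± 0.258 in Droughtmaster and -0.691 ± 0.254 in Red Angus (SD, n = 6 each). The F1 scores ran from -0.826 to 0.0346, the Droughtmaster scores from 0.611 to 1.25 and the Red Angus scores from -1.09 to -0.405. No F1 library therefore reached the lowest Droughtmaster score, although single genes did, and 5 of 6 F1 libraries lay above every Red Angus library. By the choice of genes the parents are apart in each gene and the F1 is drawn toward Droughtmaster. Neither the parental gap in the score nor the F1 scores above Red Angus are thus an independent result. F1 replicate 2, at -0.826, lay among the Red Angus libraries.

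That library also had the fewest features with counts of the 18 libraries, 15507, against 17800 to 18811 in the other F1 libraries. F1 replicate 4, which was highest in the 47 genes higher in Droughtmaster, had 18811. In Red Angus, replicates 4 and 2 had 15855 and 15790 features and the lowest scores, -1.09 and -0.796, and replicate 5 had 19096 features and the highest score, -0.405. Features and score did not go together throughout. Droughtmaster replicate 3, in which a single feature took 44.6% of counts, had the fewest features of its group, 17084, and the highest score, 1.25. F1 replicate 5, with 17800 features, had the second highest F1 score, -0.0242. The part of the number of detected features in the scores was not tested.

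**Figure D4:**
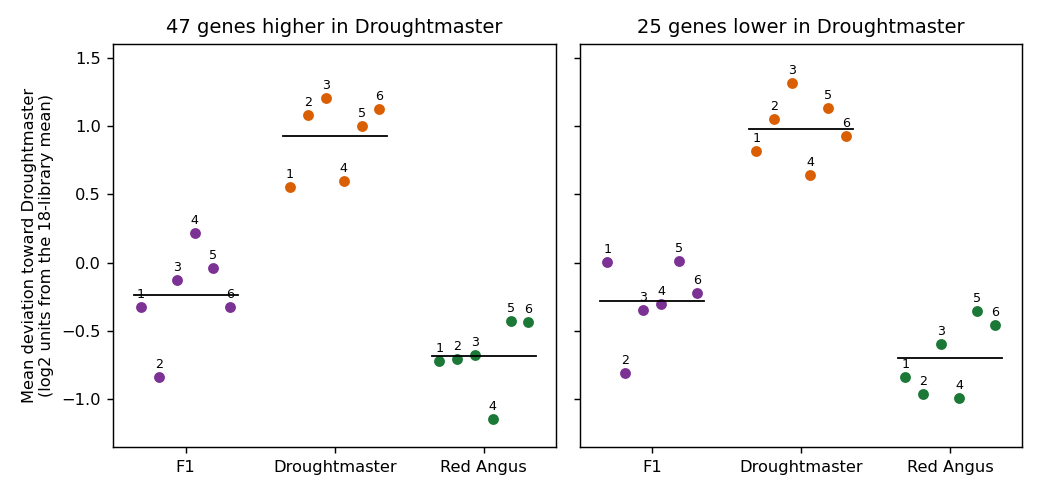
Mean deviation of each library toward Droughtmaster (vertical axis, log2 units from the mean of 18 libraries) in the 47 genes higher and the 25 genes lower in Droughtmaster; numbers are replicates and lines group means. F1 libraries lie below all Droughtmaster libraries in both panels, and F1 replicate 2 is the lowest of the F1 in both.

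In the parents, a few animals set the edges that faced the other breed. Red Angus replicate 5 was the Red Angus library nearest to Droughtmaster in 30 of the 72 genes (41.7%) and replicate 6 in 16. Droughtmaster replicate 1 was the Droughtmaster library nearest to Red Angus in 23 genes (31.9%), replicate 2 in 15 and replicate 4 in 13. The gaps between the parental ranges were small, with a median of 0.25 log2 units in the higher and 0.23 in the lower genes, and 25 of the 72 gaps were under 0.1.

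The list depended on the animals included. At fixed levels, leaving out a parental library can only narrow the range of that breed, so more genes can meet the separation. Leaving out each parental library in turn gave 75 to 403 genes, more than 72 each time. Without Red Angus replicate 5 the same conditions gave 403 genes, and they gave 126, 119 and 111 without Red Angus replicates 6 and 2 and Droughtmaster replicate 1. All 72 genes were among the 403. The genes lower in Droughtmaster, 25 in all libraries, numbered 41, 40 and 47 without Red Angus replicate 1 and Droughtmaster replicates 2 and 5. Without Droughtmaster replicate 3 the conditions gave 86 genes, 57 of them among the 72. Without F1 replicate 5 they gave 58, of which 46 were among the 72.

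The 2 genes of each direction with the widest gap between the parental ranges are given by identifier. ENSBTAG00000026428 had the widest gap of the higher genes, 1.25 log2 units. Its levels were 0.203, 2.65 and 5.36 CPM in F1 (lowest, median and highest of 6), 3.51, 5.53 and 18.7 in Droughtmaster, and 0.142, 0.794 and 1.18 in Red Angus. Of the 6 F1 libraries, 2 lay in the Droughtmaster range (replicates 3 and 4, at 5.36 and 5.27 CPM), 3 between the breeds and 1 in the Red Angus range (replicate 5, at 0.203 CPM, from 3 counts). The F1 mean had a place of 0.475, at 2.89 ± 2.10 CPM in F1, 7.40 ± 5.63 in Droughtmaster and 0.736 ± 0.363 in Red Angus (SD, n = 6 each).

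ENSBTAG00000010273 was close to undetected in Red Angus, with 3 counts in replicate 5 and 0 in each of the other 5 libraries. It had 0 to 14 counts in F1 libraries and 9 to 525 in Droughtmaster libraries. The levels were 0, 0.173 and 0.760 CPM in F1 (lowest, median, highest) and 0.567, 10.9 and 24.1 CPM in Droughtmaster. Droughtmaster itself fell into 2 levels: replicates 1 and 4 measured 0.567 and 0.624 CPM, and the other 4 measured 7.70 to 24.1 CPM. The overlap with F1 came from replicates 1 and 4 of Droughtmaster and replicate 6 of F1.

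Among the lower genes, ENSBTAG00000009704 had the widest gap, 0.63 log2 units. It measured 1.01, 3.17 and 4.29 CPM in F1 (lowest, median, highest), 0, 0.965 and 1.56 in Droughtmaster and 2.69, 4.35 and 7.14 in Red Angus. Only F1 replicate 5 lay in the Droughtmaster range, 1 F1 library lay between the breeds and 4 lay in the Red Angus range. The differences from Red Angus were -0.59 log2 units in F1 and -2.04 in Droughtmaster.

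ENSBTAG00000055017 rested on more counts, 299 to 2567 per library, and had narrow Droughtmaster values. It measured 30.4, 54.9 and 77.4 CPM in F1 (lowest, median, highest), 29.8, 38.2 and 42.0 in Droughtmaster and 63.5, 84.8 and 130 in Red Angus. The means were 55.2 ± 16.0, 37.7 ± 4.44 and 92.4 ± 24.2 CPM in F1, Droughtmaster and Red Angus (SD, n = 6 each). F1 replicate 5, at 30.4 CPM, was again the only F1 library in the Droughtmaster range, 3 lay between the breeds and 2 among the Red Angus libraries. Its place of 0.603 was the highest of the 25 lower genes.

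**Figure D5:**
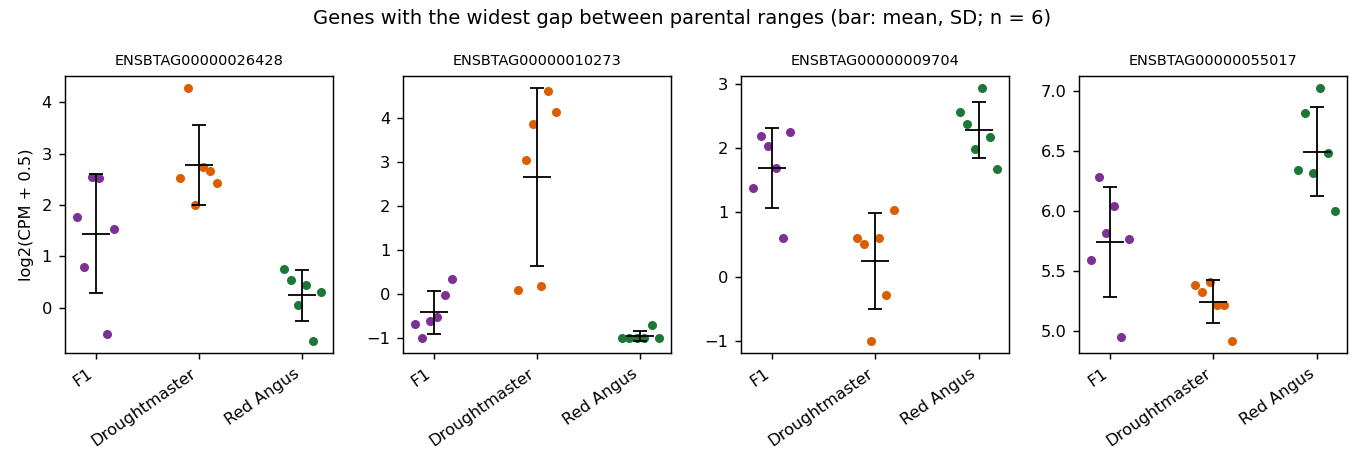
Levels of the 2 higher and the 2 lower genes with the widest gap between the parental ranges, as log2(CPM + 0.5) on the vertical axis, for each library of F1, Droughtmaster and Red Angus; bars are mean and SD (n = 6). In both lower genes 1 F1 library, replicate 5, lies in the Droughtmaster range.

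The remaining 68 genes took several forms. The gene with the most counts, at a mean of 872 CPM over the 18 libraries, was higher in Droughtmaster. It measured 124, 517 and 1287 CPM in F1 (lowest, median, highest), 728, 1362 and 3597 in Droughtmaster and 93.2, 392 and 615 in Red Angus. F1 replicates 4 and 5 lay in the Droughtmaster range and the other 4 F1 libraries in the Red Angus range, with none in between.

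The gene with the F1 nearest to Droughtmaster, at a place of 0.738, measured 2.70, 4.06 and 7.96 CPM in F1, 4.35, 5.97 and 7.44 in Droughtmaster and 0.676, 1.71 and 3.53 in Red Angus. Its F1 replicate 1, at 7.96 CPM, was the single value of the 432 beyond the Droughtmaster range. The largest parental difference of the 72 genes, -3.81 log2 units, belonged to a gene at 6.60, 10.4 and 27.0 CPM in F1, 0.229, 0.838 and 8.70 in Droughtmaster and 12.2, 23.2 and 48.0 in Red Angus. There the Droughtmaster edge was replicate 1, at 8.70 CPM, while the other Droughtmaster libraries lay at 0.229 to 3.84 CPM.

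At the other end, 2 genes with parental differences of 3.55 and -1.99 log2 units had F1 means past the Red Angus mean, and a single F1 library carried each overlap. In the first, F1 replicate 5 measured 16.6 CPM and the other 5 F1 libraries 2.06 to 3.40, against 15.7 to 449 CPM in Droughtmaster and 3.65 to 11.9 in Red Angus. None of its F1 libraries lay inside the Red Angus range: 5 were below it. In the second, F1 replicate 1 measured 0.477 CPM and the other F1 libraries 4.26 to 13.3, against 0.167 to 1.08 in Droughtmaster and 1.18 to 11.1 in Red Angus.

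In 5 genes, 4 of the 6 F1 libraries reached the Droughtmaster range, 3 of them higher and 2 lower in Droughtmaster. In both lower ones, 1 Droughtmaster library lay nearer to Red Angus than the other 5. The first measured 32.9 to 55.7 CPM in F1 and 49.2 to 115 in Red Angus. There, Droughtmaster replicate 4 measured 41.9 and the other 5 Droughtmaster libraries 3.09 to 25.3 CPM. The second measured 1.15 to 2.82 CPM in F1 and 2.51 to 3.72 in Red Angus. Its Droughtmaster replicate 6 measured 2.21 and the other 5 Droughtmaster libraries 0.189 to 1.34 CPM. One of the higher ones, at 2.10 to 5.90 CPM in F1 and 1.81 to 3.74 in Red Angus, had Droughtmaster replicates 1 and 4 at 3.85 and 3.89 CPM and the other 4 Droughtmaster libraries at 7.84 to 8.42. Its 4 F1 libraries counted as reaching Droughtmaster, at 4.61 to 5.90 CPM, lay between those levels.

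At the edges of the choice, the 3 genes with the smallest parental difference in the list had 1.00, 1.02 and 1.03 log2 units. The 3 nearest genes left out, which met the other conditions, had 0.998, 0.980 and 0.966. The overlap of F1 with Droughtmaster gave signed gaps between the ranges of -0.00445, -0.0295 and -0.0494 log2 units in the 3 genes where it was narrowest, and the 3 separated genes nearest to overlap missed it by 0.00546, 0.00613 and 0.0136. With no limit on the size of the parental difference, 202 genes (1.64%) were separated and 121 of them met the overlap condition.

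The genes ranged from 1.04 to 872 CPM. Their median over the 18 libraries was 6.89 CPM, against 19.3 CPM in all 12326 genes, and 42 of 72 (58.3%) were under 10 CPM, against 34.8% of all genes. The higher genes had a median of 5.28 CPM and the lower ones 14.8 CPM. A gene held between 352 and 259936 counts over all libraries, with a median of 2194. At least 10 counts stood in every library in 38 genes, and 7 genes had 0 counts in at least 1 library. A range condition on low counts is open to sampling error in each of the libraries that set the edges. The median SD within a group was 0.607 log2 units in F1, 0.531 in Droughtmaster and 0.505 in Red Angus over the 72 genes, and 0.492, 0.527 and 0.661 over all 12326. The F1 was the most variable group in 27 of the 72 genes (37.5%), as in 19 of the 52 separated genes clear of Droughtmaster (36.5%), against 12.6% of all genes. In those 52 genes the median SD in F1 was 0.457 log2 units. Of the 3 groups, only Red Angus had a lower median SD in the 72 genes than over all genes. The conditions ask for separate parental ranges and for an F1 range that reaches Droughtmaster, so these spreads are no independent result.

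With the group means removed, the 72 genes varied together only in part from animal to animal. Over the 2556 pairs of genes, oriented toward Droughtmaster, the median Pearson correlation over 18 libraries was 0.170 (quartiles -0.046 and 0.396), and 70.2% of pairs were positive. The pairs share libraries, scaling and the low depth of many genes. No such value was taken for other genes, so these correlations show nothing particular to the 72.

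The fit across all 14446 features was read beside these ranges. Between F1 and Red Angus, the quasi-likelihood test of edgeR, with Benjamini-Hochberg adjustment, called 0 of the 72 genes and 0 of all features (0%), and DESeq2's Wald test called 0 of the 72 genes and 1 feature in all (0.00698%). At an unadjusted p under 0.05 the edgeR test gave 11 of the 72 genes (15.3%), against 3.23% of all features. The F1 mean lay on the Droughtmaster side in 11 of these 11, where 2.66% of all features had such a p in that direction. An F1 that overlaps Droughtmaster is pushed to that side by the choice of genes, so this share is no independent result.

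Between F1 and Droughtmaster, the same edgeR test called 8 of the 72 genes (11.1%), against 1.18% of all features. The F1 was higher in 4 of them, against 0.305% of all features, and lower in 4, against 0.879%. Their places ran from -0.351 to 0.326. Both groups entered the conditions. A Droughtmaster range clear of Red Angus favours such calls, while the required overlap of F1 with Droughtmaster works against them. These counts are therefore no independent result. Of the 72 genes, 4 passed without F1 replicate 3 and 5 without each of F1 replicates 1, 4 and 6 and Droughtmaster replicates 3 and 6. At an unadjusted p under 0.05 edgeR gave 60 of the 72, against 14.1% of all features. DESeq2's Wald test, with adjustment, called 33, against 4.52% of the features it tested. Between Droughtmaster and Red Angus, the contrast that chose the genes, edgeR called 53 of the 72, against 2.60% of all features. DESeq2 called 72, against 7.24% of the features it tested, and edgeR called 20 in a fit of the 12 parental libraries alone. It called 27 to 32 without Red Angus replicates 1, 3 or 4 or Droughtmaster replicates 3 or 6.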

How the data were processed

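The authors deposited raw gene counts of 18 libraries, whole numbers that sum to 11639027 to 24117615 per library. The build was ARS-UCD1.2, and the tools were HISAT2 2.0.5, DESeq2 1.16.1 and featureCounts 1.5.0-p3, per the submitters' processing notes. Annotation release and strandedness are not given in the sources used here. Reads of near-identical copies and of overlapping or antisense genes may be shared in any gene described. Breed labels gave the groups, and every count column matched a library by title. The 2555 unannotated loci entered the fits but not the choice of genes.

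From the counts, filterByExpr by breed kept 14446 of 30162 features, TMM factors scaled the libraries, and CPM was computed with edgeR 4.0.16 in R 4.3.3. All 18 libraries entered 1 quasi-likelihood fit with 3 group means and robust estimation. Tests were two-sided with Benjamini-Hochberg adjustment over all features and a threshold of 0.05. DESeq2 1.42.0 served as an alternative. The pseudocount was 0.5. Each pair of libraries differed by more than sampling noise (chi-square over degrees of freedom at least 59.8). The genes, lists and rules were chosen with earlier results of these data known. The 20 gene lists drawn up by symbol could not be matched, and 0 of their members had a value. The rule for named genes allowed 2 identifiers in each direction, those with the widest gap between parental ranges; other genes, and the forms described for them, were picked after their values were seen.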

Additional observations from a re-analysis of the deposited data

Results flagged for a closer look

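In 27 sets of 6 libraries, 4 had a highest or lowest library far from the other 5. For independent, normally distributed values about 1 set in 20 would pass that threshold. Some sets here came from genes picked for wide parental gaps or held mostly 0 counts, so 4 of 27 is not read as an excess. The number of features with counts in F1 was lowest in replicate 2, at 15507, and the distance to the next library was 0.694 of the range. The most abundant feature took 44.6% of counts in Droughtmaster replicate 3 and at most 1.87% in the other Droughtmaster libraries, a distance of 0.987 of the range. For ENSBTAG00000026428, Droughtmaster replicate 2 lay highest at 4.27 on the log2(CPM + 0.5) scale, against 2.74 for the next library, a distance of 0.673 of the range. For ENSBTAG00000010273, Red Angus replicate 5, with 3 counts, was the only Red Angus library above 0 counts, so the distance was 1 times the range.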

How the results depend on the processing

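The median places kept their sign and moved by less than the SD between F1 libraries (0.260 for the higher and 0.170 for the lower genes) under DESeq2 size factors, a pseudocount of 2 and each library left out. The number of genes meeting the conditions was 75 with DESeq2 size factors, 67 with no filterByExpr filter and 48 with a pseudocount of 2 (29 higher). It was 41 (24 higher) with a mean of at least 5 CPM, and 32 (19 higher, 13 lower) with a parental difference of at least 1.5. Leaving out each library in turn gave 58 to 403 genes (38 to 264 higher, 20 to 139 lower). Of the 72 genes, 27 to 67 were called between the parents and 4 to 12 between F1 and Droughtmaster with a library left out. DESeq2's Wald test called 33 between F1 and Droughtmaster, and the fit of the 12 parental libraries called 20 between the parents; the cause was not tested. An alternative chosen after seeing the data left out Red Angus replicates 2 and 4 and F1 replicate 2, the 3 libraries with the fewest features. It gave 130 genes (75 higher, 55 lower), 51 of them among the 72, and called 23 of the 72 between the parents. Calls between F1 and Red Angus were 0 of 72 in each refit: with DESeq2 size factors, by the Wald test, with no filterByExpr filter, with only the 12 libraries compared, and with 1 or those 3 libraries left out. No paired analysis was possible because the labels give the animals of different breeds no shared numbers. Before TMM scaling, 1 CPM stands for about 11.6 to 24.1 counts in a library, and the scaling shifts this for each library. For ENSBTAG00000026428, 25 counts gave 3.51 CPM in Droughtmaster replicate 3, and 4 counts gave 0.142 CPM in Red Angus replicate 5. Such low counts limit every range near 1 CPM.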

Other observations

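Of the 714 unannotated loci with a mean of at least 1 CPM, 1 met the same conditions, and it was lower in Droughtmaster. It measured 1.11, 2.68 and 4.85 CPM in F1 (lowest, median, highest), 0.189, 0.709 and 1.88 in Droughtmaster and 2.24, 2.97 and 5.55 in Red Angus, a place of 0.155.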
